A study of Mus musculus with 12 samples.

Results

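The transcriptome of thioglycollate-elicited peritoneal exudate cells (PECs) before LPS stimulation was described from the 4 unstimulated libraries of a series of 12. These libraries were chosen by their label alone (0 hr of LPS), and the 12850 genes of the table were ranked by their mean log2 CPM over them, where CPM is the reads of a gene per 1000000 of a library size scaled by the authors. The 2 WT libraries came from PECs of WT mice and the other 2 from PECs of Zc3h12a S513A/S513A knock-in mice, in which a serine of Regnase-1 is replaced by alanine. All mice were C57BL/6. They received 2 ml of 4% Brewer's thioglycollate medium intraperitoneally, and the cells were taken 3.5 days later and cultured in RPMI-1640 with serum. The sources used here did not give the age of the mice or say whether a library pooled animals, nor whether replicates came from separate animals, so that p-values measure only the spread between these samples. The remaining 8 libraries, from the same genotypes at 4 and 8 hr of 100 ng/ml LPS, served to show where the resting state differed, and the genotypes were not contrasted.

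Thioglycollate medium provokes a sterile inflammation of the peritoneal cavity in which neutrophils arrive early and monocytes follow and mature into macrophages. Such macrophages carry a large lysosomal compartment, store iron in ferritin, take up lipoproteins through scavenger receptors, and keep the genes of many inflammatory cytokines low until a microbial ligand is sensed. LPS is sensed by the receptor Tlr4 with its co-receptors Cd14 and Ly96 (MD-2), and the signal reaches NF-κB and the interferon response. Regnase-1, the product of Zc3h12a, is an RNase that degrades the mRNAs of several cytokines.

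The resting libraries held 10769208 to 12439960 reads and the LPS libraries 9525979 to 12381047. The library sizes scaled by the authors were 1.06 to 1.15 times the reads at rest and 0.877 to 1.03 times the reads with LPS, so that a share of reads and a log2 CPM need not move alike between time points. The 8442 genes whose mean log2 CPM was 3 or more were used to compare the libraries. Their median SD over the 4 resting libraries was 0.13 on the log2 scale, and 85.9% had an SD under 0.25. The deviations of the libraries went with transcript length. Transcripts under 1000 bp stood at a median of -0.49 from the 4-library mean in WT replicate 1, -0.09 in WT replicate 2, 0.38 in S513A replicate 1 and 0.21 in S513A replicate 2, whereas transcripts over 8000 bp stood at 0.05, 0.15, -0.10 and -0.10. Values of 4 libraries are given below in this order. The length trend ran along the genotypes as well as between replicates, and its part in the level of any single short transcript was not tested.

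**Figure D1:**
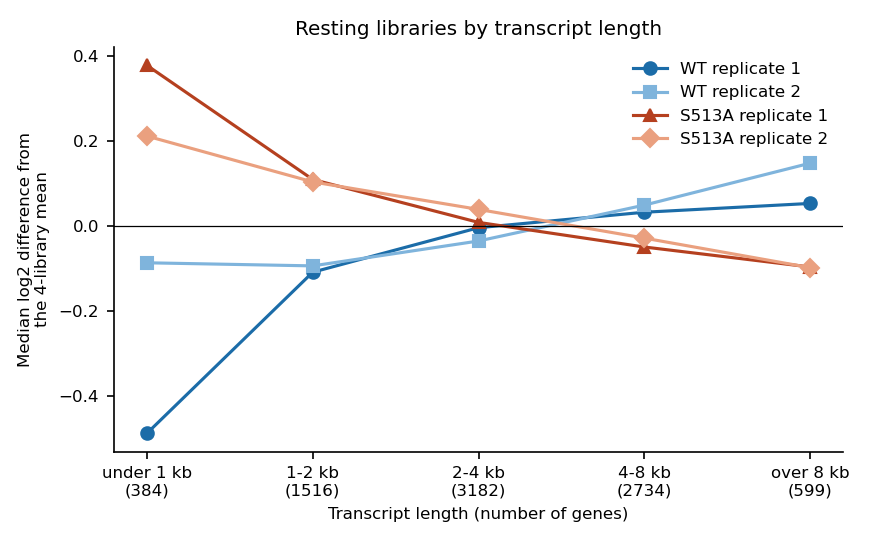
Median log2 difference of genes from the mean of the 4 resting libraries (y axis) by transcript length class (x axis, number of genes in brackets), with 1 line per library. Under 1 kb WT replicate 1 is lowest, at -0.49, and S513A replicate 1 highest, at 0.38, and all 4 libraries lie near 0 between 2 and 4 kb.

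Resting PECs put a large part of their mRNA into few genes. The 10 most abundant genes held 15.4% ± 0.580 (SD, n = 4) of the reads, the 100 most abundant 32.1% ± 0.826, and 445 genes were enough for 50% of the reads. On average 11216 genes reached 1 CPM in a library and 84 reached 1000 CPM, and the median gene of the table stood at a log2 CPM of 4.22. Of the 100 most abundant genes, 81 were among the highest 100 in every resting library. At the other end, 163 genes had 3 reads or fewer in every resting library, and 17 of these had none.

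**Figure D2:**
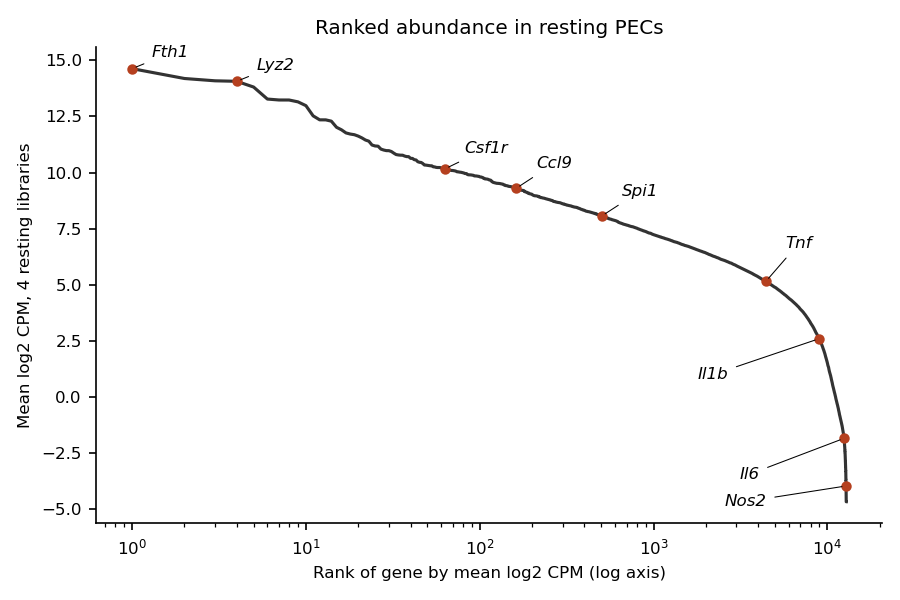
Mean log2 CPM over the 4 resting libraries (y axis) against the rank of each of the 12850 genes (x axis, log scale), with 9 genes marked. The curve runs from Fth1 at 14.63 through Csf1r at 10.16 and Tnf at 5.15 to Nos2 at -3.96, near its lower end.

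The genes at the top of the ranking encode iron storage, lysosomal and secreted macrophage proteins. Fth1, the ferritin heavy chain, was first, with a log2 CPM of 14.27, 14.50, 14.80 and 14.93, and held 2.82% ± 0.452 (SD, n = 4) of the reads. Gpnmb, a glycoprotein of endolysosomal membranes, followed at 14.28, 14.15, 14.20 and 14.12. Fth1 was higher in both S513A libraries than in both WT libraries, the direction of the length trend, whereas the Gpnmb values of the genotypes overlapped. Psap, the precursor of the saposins that assist sphingolipid breakdown, stood at 14.09 ± 0.07 (SD, n = 4). Lysozyme, Lyz2, a secreted antibacterial enzyme, was at 14.14, 13.88, 14.01 and 14.22, and the aspartic protease cathepsin D, Ctsd, at 13.82, 13.78, 13.83 and 13.80. Of these 5 genes Ctsd was the most even over the libraries.

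Ranks 6 to 10 went to Ftl1 (ferritin light chain, log2 CPM 13.27 ± 0.30, SD, n = 4), Ctsb (cathepsin B, 13.23 ± 0.10), Mmp12 (macrophage elastase, 13.23 ± 0.15), Prdx1 (a peroxiredoxin that reduces peroxides, 13.15 ± 0.29) and Ctss (cathepsin S, 12.98 ± 0.22). Ranks 11 to 20 were Lgals3, Apoe, Mpeg1, COX1, Cd36, Lpl, Itgb2, Ctsl, Actb and Eef1a1, from 12.52 down to 11.62. Lgals3 encodes a galactoside-binding lectin, Apoe an apolipoprotein secreted by macrophages, Mpeg1 a pore-forming protein of phagosomes, Cd36 a scavenger receptor, Lpl lipoprotein lipase, Itgb2 the β2 chain of the leukocyte integrins, and COX1 a mitochondrially encoded oxidase subunit. The means of Ftl1, Ctsb, Mmp12 and Prdx1 lay closer together than the SD of Ftl1, so their order was not resolved.

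**Figure D3:**
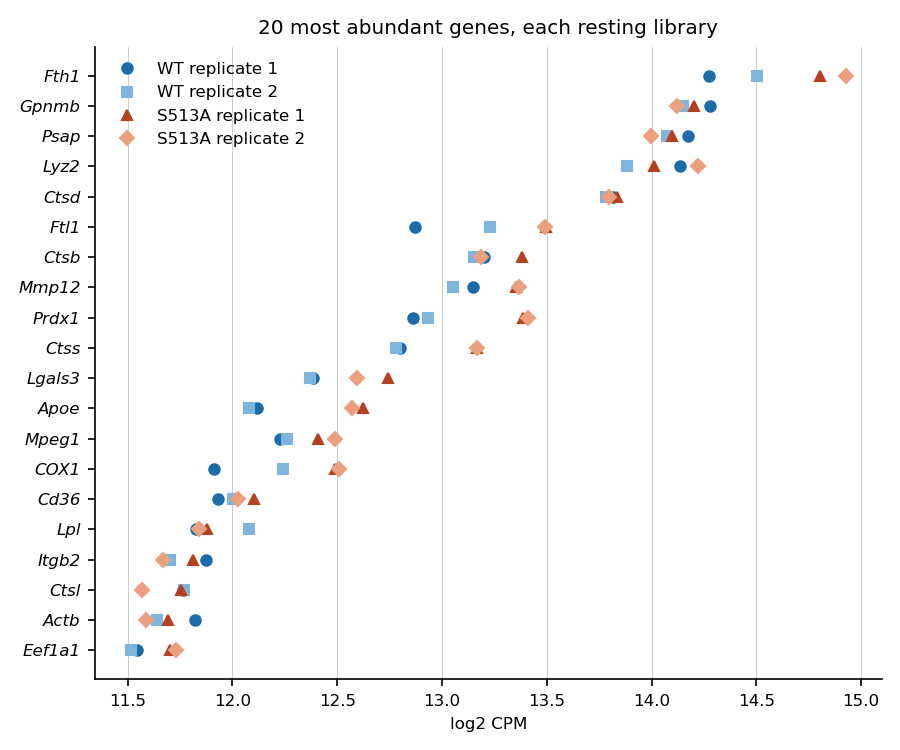
log2 CPM (x axis) of the 20 most abundant genes of resting PECs (y axis), with 1 point for each of the 4 resting libraries. Fth1 lies at 14.27 to 14.93 and the points of Ctsd fall nearly on each other, whereas both S513A libraries are to the right of both WT libraries for Ftl1, Prdx1 and Apoe. The genotypes were not contrasted, and the part of the length trend in these positions was not tested.

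Because a long transcript yields more reads, levels of different genes were also compared as TPM. Transcript length here means the union of the exons of a gene. TPM divides the reads of a gene by that length and then scales them to a total of 1000000. On that scale Fth1 stayed first with 40798 ± 4486 TPM (SD, n = 4), before Lyz2 with 32753 ± 4439.7, Ftl1 with 25688 ± 2665, Ctsd with 16927 ± 1718 and Psap with 15968 ± 2299. Ctss with 14888 ± 887, Gpnmb with 10419 ± 1467, Lgals3 with 9282 ± 419, Prdx1 with 8961 ± 926 and COX1 with 8129.6 ± 764 TPM completed the first 10. Lyz2 moved from rank 4 to rank 2, and Gpnmb, with a transcript of 4514 bp, from rank 2 to rank 7. The ranges of Fth1 and Lyz2 over the libraries overlapped, as did those of Ctsd and Psap, of Psap and Ctss, and of each neighbouring pair from Gpnmb to COX1. Lyz2 lay above Ftl1, Ftl1 above Ctsd and Ctss above Gpnmb without overlap. The 10 highest genes by TPM held 18.4% of all TPM, and 62 genes were among the 100 highest on both scales. B2m, the light chain of MHC class I, moved from rank 23 to rank 11 and Tyrobp, the signaling adaptor DAP12 with a transcript of 564 bp, from rank 54 to rank 14.

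The labelled cell type was checked against macrophage markers. Beside Lyz2, Csf1r, the receptor for M-CSF, was at rank 63 with a log2 CPM of 10.31, 10.01, 10.17 and 10.16, and Adgre1, the F4/80 antigen, at rank 69 with 10.25, 10.04, 10.02 and 10.05. Csf1r had 13153 to 18227 reads and Adgre1 11848 to 17497. Cd68, a glycoprotein of macrophage lysosomes, was at 10.78 ± 0.11 (SD, n = 4) and Itgam, the CD11b integrin chain, at 10.48 ± 0.16. These 5 of the 7 markers were among the 100 most abundant genes, while Mertk, a receptor for dying cells, stood at 6.58 ± 0.17 and Fcgr1, the high-affinity IgG receptor, at 5.83 ± 0.17. The 7 genes took 2.33% to 2.76% of the reads.

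Markers of other cell types were mostly low, with a few exceptions. Fewer cells of a type and less RNA per cell cannot be told apart in bulk libraries. Of 13 neutrophil markers 5 had a row in the table used here and took 0.0800% to 0.0927% of the reads. Mmp8, the neutrophil collagenase, was high at a log2 CPM of 9.50, 9.29, 9.39 and 9.44, and Mmp9, a gelatinase, stood at 5.56 ± 0.21 (SD, n = 4). S100a8, a calcium-binding protein abundant in neutrophils, had 290, 455, 616 and 608 reads, in the order of the length trend. The lipocalin gene Lcn2 had 99, 95, 106 and 127 reads and the granule peptide gene Camp 0, 4, 1 and 0. Of 14 T and NK cell markers 4 had a row and took 0.0634% to 0.0719% of the reads. Il7r, the interleukin-7 receptor chain, accounted for nearly all of these with 7472 to 7870 reads, beside 7 to 17 for the T cell kinase Lck, 6 to 13 for Cd4 and 2 to 8 for Thy1.

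The 6 B cell markers with a row, of 9, took 0.00111% to 0.00189% of the reads, led by Ighm (the IgM heavy chain) with 78 to 117 reads, before Cd79b with 10 to 24. The 4 mast cell markers, of 8, took 0.000223% to 0.000358% and were all below 1 CPM, with Tpsb2 (a tryptase) at 6 to 15 reads. For eosinophils 2 of 7 had a row, Siglecf with 196 to 234 reads and Ccr3 with 1 to 2 (0.00173% to 0.00196% of the reads). For dendritic cells 5 of 8 did, led by Clec9a with 34 to 73 reads and Ccr7 with 10 to 23 (0.000548% to 0.000892%). The 8 mesothelial and fibroblast markers, of 11, took 0.00219% to 0.00717%, with the collagen genes Col1a1 and Col1a2 at 409, 244, 201 and 86 and 285, 199, 195 and 79 reads, and the mesothelial gene Msln at 11, 6, 0 and 3. Of the endothelial markers 2 of 5 had a row, Kdr with 89 to 152 reads and Cdh5 with 3 to 6 (0.000831% to 0.00126%), and of the platelet markers 1 of 4, Ppbp, with 3 to 14 reads. None of the 6 erythroid markers had a row, and markers without a row were not analysed here.

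**Figure D4:**
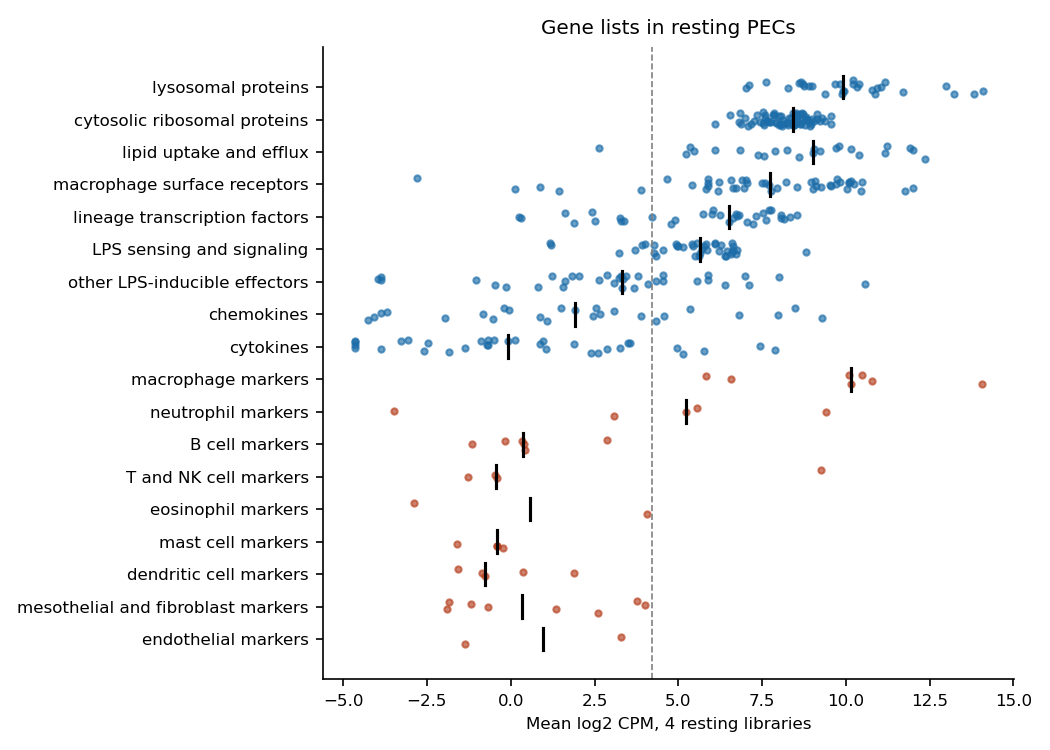
Mean log2 CPM over the 4 resting libraries (x axis) of every member of 18 gene lists (y axis), with pathway lists in blue, cell type marker lists in red, list medians as black bars and the median of the whole table, 4.22, as a dashed line. Lysosomal genes sit at a median of 9.93 and cytokine genes at -0.08, and among markers of other cell types Mmp8 and Il7r stand far to the right.

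The lysosomal list was the largest in share of reads. All 30 of its genes had a row, each at 100 CPM or more, with a median log2 CPM of 9.93 against 4.22 over all genes, and 18 of them were among the 100 most abundant. Together they took 8.45% ± 0.222 (SD, n = 4) of the resting reads. Among 9 cathepsins Ctsd and Ctss led, with overlapping ranges of 15522 to 19102 and 13691 to 15746 TPM. Ctsb followed with 5084 ± 415 TPM, the carboxypeptidase Ctsz with 3409 ± 148, Ctsl with 1374 ± 204 and Ctsa with 873 ± 67.0. The collagen-degrading Ctsk and the aminopeptidase Ctsh, at 718 ± 34.9 and 648 ± 41.9 TPM, overlapped, and the dipeptidyl peptidase Ctsc was lowest with 92.4 ± 12.7. The other neighbours in this order did not overlap.

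Many lysosomal genes were lower with LPS. In a limma fit to all 12 libraries, averaged over the genotypes, 11885 genes with at least 1 CPM in 2 libraries were tested. At a Benjamini-Hochberg adjusted p under 0.05, 29.1% of them were higher and 26.7% lower at 4 hr, and 24.5% higher and 21.6% lower at 8 hr. Of the 30 lysosomal genes 19 were lower and 1 higher at 4 hr, and 19 lower and 2 higher at 8 hr. Their median log2 change was -0.33 and -0.42, beside 0.02 and -0.0007 over all genes tested. Atp6v0d2, a subunit of the lysosomal proton pump, stood at 9.62, 9.87, 10.05 and 10.04 at rest and at 7.55 to 8.22 at 4 hr, a log2 change of -1.93 ± 0.13 (SE, limma adjusted p = 3.8e-07). Every 4 hr library lay below every resting one. The asparaginyl endopeptidase Lgmn changed by -1.68 ± 0.09 at 8 hr (limma adjusted p = 9.2e-08) and the acid lipase Lipa by -1.11 ± 0.08 at 4 hr (limma adjusted p = 3.8e-07), whereas Ctsc was higher by 0.84 ± 0.12 at 4 hr (limma adjusted p = 0.00017). The list took 5.40% ± 0.166 of the reads at 4 hr and 5.01% ± 0.123 at 8 hr (SD, n = 4 each).

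Promoter windows of RefSeq (GRCm38.p6, 250 bases before to 50 after a transcription start, 32851 windows of 27025 genes) were searched on both strands for 3 short motifs, none of which contains another. CACGTG, the E-box core bound by the MiT/TFE factors that control lysosomal genes, was in windows of 8.09% of all genes, of 11.8% of the genes of the table, of 9 of 78 of the 100 most abundant genes and of 5 of the 22 lysosomal genes with a window, namely Ctsa, Ctsd, Ctsl, Lamp1 and Lgmn. Ctsd (minus strand, chr7:142387778-142388077) and Lamp1 (plus strand, chr8:13158911-13159210) are shown, 5′ to 3′ on the strand of the gene and with the motif in capitals, as an abundant protease and an abundant membrane protein of the lysosome.
Ctsd: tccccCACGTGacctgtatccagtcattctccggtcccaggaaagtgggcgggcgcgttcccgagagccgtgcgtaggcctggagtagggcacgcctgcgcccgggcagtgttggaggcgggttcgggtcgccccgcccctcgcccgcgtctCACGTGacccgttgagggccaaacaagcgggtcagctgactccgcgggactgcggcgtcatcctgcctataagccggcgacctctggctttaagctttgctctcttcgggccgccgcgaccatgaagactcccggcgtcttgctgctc
Lamp1: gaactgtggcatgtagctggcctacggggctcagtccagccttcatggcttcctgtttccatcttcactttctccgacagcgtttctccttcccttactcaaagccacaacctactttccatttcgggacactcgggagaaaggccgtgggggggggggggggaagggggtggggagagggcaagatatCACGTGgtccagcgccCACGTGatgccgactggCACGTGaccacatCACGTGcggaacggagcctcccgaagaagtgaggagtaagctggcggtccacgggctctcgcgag
The Ctsd window held 2 matches and the Lamp1 window 4. Of the MiT/TFE factors themselves, Tfe3 had 64.2 ± 10.8 TPM at rest, Mitf 50.2 ± 7.65, Tfec 38.3 ± 4.13 and Tfeb 33.7 ± 6.29 (SD, n = 4).

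Iron and lipid genes were also abundant. The 12 iron genes with a row took 4.13% ± 0.608 (SD, n = 4) of the resting reads, mostly through ferritin. After ferritin the highest were Slc11a1 (Nramp1), a metal transporter of phagosomes, at a log2 CPM of 9.65 ± 0.08, and heme oxygenase, Hmox1, at 8.70 ± 0.08. The iron exporter Slc40a1 stood at 2.34, 1.49, 2.38 and 1.99 and the haemoglobin receptor Cd163 at 0.77, 1.41, 1.16 and 1.21. The 23 genes of lipid uptake and efflux took 2.82% ± 0.0586 of the reads, and 7 were among the 100 most abundant. Apoe had 7122 ± 741 TPM, Cd36 2933 ± 179, Lpl 2350.2 ± 345 and the endocytic receptor Lrp1 387 ± 139.9.

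Pparg, a nuclear receptor that drives lipid uptake genes, stood at 5.28, 5.39, 5.69 and 5.54 at rest and at 2.13 to 2.67 at 8 hr of LPS, a log2 change of -3.02 ± 0.13 (SE, limma adjusted p = 1.4e-08). The fatty-acid binding protein Fabp4 changed by -2.51 ± 0.21 (limma adjusted p = 2.8e-06) and the fatty-acid ligase Acsl1 by 2.76 ± 0.10 (limma adjusted p = 4.4e-09), in opposite directions. Of the 23 lipid genes 11 were lower and 6 higher at 4 hr, and 11 lower and 7 higher at 8 hr. Of the 12 iron genes 5 were higher and 4 lower at 4 hr, and 5 higher and 2 lower at 8 hr, with the ferrireductase Steap3 at -2.05 ± 0.10 at 4 hr (limma adjusted p = 3.4e-08). Among all genes tested 29.1% were higher and 26.7% lower at 4 hr, and 24.5% higher and 21.6% lower at 8 hr.

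Surface receptors of the myeloid line were abundant as a list. Of 46 receptor genes with a row, 31 reached 100 CPM and 10 were among the 100 most abundant, with a median log2 CPM of 7.75. By TPM Tyrobp led with 5477 ± 853 (SD, n = 4), above Itgb2 with 2954 ± 437 and Cd36 with 2933 ± 179, which overlapped. Fcer1g, the shared Fc receptor γ chain (2071 ± 418 TPM), the C-type lectin Clec4d (1981 ± 274) and the lipid receptor Trem2 (1839 ± 112) came next, below Cd36 and overlapping with each other, and the β-glucan receptor Clec7a lay below them with 1204 ± 199. At the low end the chemokine receptors Ccr2 and Cx3cr1 had 57, 30, 23 and 32 and 14, 9, 21 and 12 reads, and the amplifying receptor Trem1 had 2, 2, 3 and 0.

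Of the 45 receptor genes with at least 1 CPM in 2 resting libraries 19 were higher and 12 lower at 4 hr of LPS, and 22 higher and 14 lower at 8 hr. Shares over all genes tested were 29.1% higher and 26.7% lower at 4 hr, and 24.5% and 21.6% at 8 hr. The kinase receptor Axl stood at a log2 CPM of 4.998, 4.38, 4.65 and 4.67 at rest and changed by 2.56 ± 0.12 at 4 hr (SE, limma adjusted p = 1.8e-08). The macrophage marker Adgre1 was higher by 1.38 ± 0.08 at 8 hr (limma adjusted p = 2.4e-07).

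GAGGAAG, a purine-rich motif of the kind bound by the myeloid factor PU.1, was in windows of 15 of the 33 receptor genes that had one, against 15.4% of all genes and 16.2% of the genes of the table. It was also in windows of 7 of 22 lysosomal genes and 12 of 78 of the 100 most abundant genes. Itgam (plus strand, chr7:128062390-128062689) and Ctss (plus strand, chr3:95526536-95526835) are shown as abundant resting genes with the motif near the start, and capitals mark it or its reverse complement.
Itgam: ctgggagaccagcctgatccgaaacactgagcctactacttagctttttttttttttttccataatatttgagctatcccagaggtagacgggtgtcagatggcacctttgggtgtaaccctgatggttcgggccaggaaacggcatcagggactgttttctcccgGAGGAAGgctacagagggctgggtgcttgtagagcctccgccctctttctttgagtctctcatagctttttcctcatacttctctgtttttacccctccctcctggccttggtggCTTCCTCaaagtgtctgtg
Ctss: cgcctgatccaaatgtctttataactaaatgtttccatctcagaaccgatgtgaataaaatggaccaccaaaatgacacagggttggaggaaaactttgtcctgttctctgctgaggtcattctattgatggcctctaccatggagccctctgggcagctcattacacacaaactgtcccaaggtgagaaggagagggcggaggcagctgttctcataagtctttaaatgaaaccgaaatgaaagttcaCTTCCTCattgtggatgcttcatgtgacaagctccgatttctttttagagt
The Itgam window held 2 matches and the Ctss window 1.

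Among 33 lineage transcription factors the highest by TPM were Cebpb with 367 ± 72.6 (SD, n = 4), Spi1, which encodes PU.1, with 329.7 ± 23.4, Cebpa with 307 ± 55.1 and Id2, an inhibitor of DNA binding, with 276 ± 13.1. Each overlapped with the next, and all 4 lay above Irf5 with 173 ± 15.8. None of the 33 was among the 100 most abundant genes. The interferon-response factor Irf1 stood at a log2 CPM of 5.95, 5.82, 6.14 and 6.23 at rest and was higher by 2.71 ± 0.08 at 4 hr of LPS (SE, limma adjusted p = 8.8e-10). Of the 33 factors 14 were higher and 10 lower at 4 hr, and 15 higher and 11 lower at 8 hr. Beside this, 29.1% of all genes tested were higher and 26.7% lower at 4 hr, and 24.5% and 21.6% at 8 hr.

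Genes that mark the resident large macrophages of the cavity were low. Gata6, the factor that defines these cells, had 35, 66, 30 and 30 reads, and the phosphatidylserine receptor Timd4 stood at a log2 CPM of 3.49, 3.41, 2.73 and 3.44. The 18 listed genes of this type had a median of 2.59, and the highest were F10 (coagulation factor X) at 8.56 ± 0.21 (SD, n = 4) and the repressor Bhlhe41 at 7.31 ± 0.06. The 17 genes of monocytes and small peritoneal macrophages had a median of 3.51. There the adhesion receptor Cd44 led with 8.27 ± 0.06, and Ly6c2, a marker of inflammatory monocytes, was at 3.32, 3.03, 3.90 and 3.78. Both medians lay under that of the whole table.

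Genes of alternative activation and repair were divided. Gpnmb, Mmp12, osteopontin (Spp1, 10.97 ± 0.17, SD, n = 4) and fibronectin (Fn1, 10.08 ± 0.66) were among the 100 most abundant genes on the log2 CPM scale. Arginase 1, Arg1, stood at 3.75, 3.21, 1.998 and 2.37, the secreted protein Retnla at 2.67, 2.89, 4.61 and 4.18 and the chitinase-like Chil3 at 3.64, 3.50, 4.35 and 3.81. Arg1 was highest in WT replicate 1, and Retnla, with a transcript of 599 bp, ran in the order of the length trend. The mannose receptor Mrc1 was at 7.72 ± 0.14. Among metalloproteinases Mmp12 had 6043 ± 329 TPM, above Mmp8 with 704 ± 95.02 and Mmp14 with 153 ± 26.0, and Mmp2 was lowest with 2.72 ± 0.712.

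The 15 genes of MHC class I presentation and the 11 class II genes had median log2 CPM values of 5.24 and 5.13 at rest, and 3 class I genes were among the 100 most abundant. By log2 CPM the class I heavy chain H2-D1 stood at 11.45 ± 0.23 (SD, n = 4), H2-K1 at 10.34 ± 0.16 and B2m at 10.86, 11.24, 11.80 and 11.70. The peptide transporter Tap1 stood at 5.45, 5.11, 5.14 and 5.26 and was higher by 2.91 ± 0.09 at 4 hr of LPS (SE, limma adjusted p = 1.2e-09), and Nlrc5, the class I transactivator, stood at 4.53, 4.38, 4.26 and 4.11 and was higher by 2.88 ± 0.13 (limma adjusted p = 1.7e-08). Of the 15 class I genes 12 were higher and 0 lower at 4 hr, and 13 higher and 0 lower at 8 hr. Over all genes tested 29.1% were higher and 26.7% lower at 4 hr, and 24.5% higher and 21.6% lower at 8 hr. The class II invariant chain Cd74 stood at 8.15, 7.69, 7.97 and 8.15, and the 11 class II genes took 0.0719% ± 0.00874 of the resting reads. Complement genes were present too, with factor B, Cfb, at 8.66 ± 0.26, C3 at 7.77 ± 0.23 and C1qc, a chain of the initiating complex, at 7.04 ± 0.18.

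Cytokine genes had the lowest median log2 CPM of the pathway lists. Of 54 sought, 33 had a row, with a median log2 CPM of -0.08, and 17 stood below 1 CPM. Together they took 0.0668% ± 0.00324 (SD, n = 4) of the resting reads. Tgfb1, an inhibitory growth factor, had 279 ± 61.4 TPM, the macrophage cytokine Mif 252 ± 19.4, and Il1rn, the interleukin-1 receptor antagonist, 161 ± 16.7. Tgfb1 and Mif overlapped in range, and both lay above Il1rn. Tnf stood at a log2 CPM of 4.90, 4.88, 5.21 and 5.61 and Il1a at 4.97, 4.70, 4.90 and 5.27, that is 383 to 582 and 337 to 461 reads. By TPM Tnf (54.8 ± 9.84) lay above Il1a (39.8 ± 6.20) in range. Il1b was at 3.06, 2.24, 2.31 and 2.79 on the log2 CPM scale, whereas Il6 had 8, 1, 3 and 3 reads and Il12b, the p40 chain of interleukins 12 and 23, had 5, 3, 4 and 6.

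The number of cytokine genes at 3 reads or fewer in every resting library was 9 of 33, where 3 reads correspond to a log2 CPM of -2.04 to -1.70 depending on the library. Ifng, Il17f, Il22 and Il23a had 0 reads in all 4, which by counting error alone allows up to 3 reads in each. The interleukin-10 family member Il19 had 0, 1, 0 and 1 reads, lymphotoxin (Lta) 1, 1, 1 and 1, the epithelial cytokine Tslp 1, 0, 1 and 2, the granulocyte growth factor Csf3 3, 1, 2 and 1 and the interleukin-6 family member Lif 3, 3, 1 and 1. Cytokine genes that had reads and those that had none thus stood side by side in the same libraries. At 4 hr of LPS Csf3 was at 2.87 to 3.48, Lif at 2.63 to 2.91, Ifng at -0.36 to 1.02, Il22 at -0.74 to 0.85, Il23a at -0.05 to 0.78 and Il17f at -1.30 to 0.35 on the log2 CPM scale. Lta was at 0.65 to 1.38, Tslp at -0.10 to 1.10 and Il19 at -0.98 to 0.35. At 8 hr Il23a was at -4.40 to -1.37 and Il19 at -4.21 to -1.23. These 9 genes were chosen for having few reads at rest, so that their higher values with LPS are no test, and the lowest 4 hr library of Il17f held 3 reads.

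Chemokine genes covered a wider range. Of 31 sought, 25 had a row, with a median log2 CPM of 1.93, and they took 0.167% ± 0.0145 (SD, n = 4) of the resting reads. By TPM Pf4 (platelet factor 4) led with 912 ± 183, before the CC chemokines Ccl6 with 637 ± 153 and Ccl9 with 535 ± 135. Neighbours among these 3 overlapped, and all 3 lay above Ccl3 with 133 ± 11.4, Ccl5 with 118 ± 41.6 and Cxcl16 with 104 ± 14.7. Ccl9 stood at a log2 CPM of 9.61, 9.07, 9.16 and 9.35, Ccl6 at 8.74, 8.53, 8.34 and 8.35 and Pf4 at 7.38, 7.86, 8.34 and 8.32. The neutrophil attractant Cxcl2 was at 4.04, 3.88, 4.76 and 4.63 and the monocyte attractant Ccl2 at 2.70, 2.67, 2.61 and 2.70. Cxcl10, a target of interferon, had 4, 0, 7 and 6 reads. At 3 reads or fewer in every library were Ccl12 (0, 1, 0 and 0), Ccl17 (0, 0, 2 and 0), Cxcl9 (2, 1, 0 and 0) and Xcl1 (0, 1, 0 and 1). At 8 hr of LPS Cxcl9 was at 2.56 to 3.40, Ccl12 at -1.73 to 0.73, Ccl17 at -2.07 to -0.004 and Xcl1 at -1.73 to -0.51, and the lowest 8 hr library of each of the last 3 held 3 reads or fewer.

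The other LPS-inducible effectors were similarly divided. Saa3, an acute-phase apolipoprotein, was already at rank 43 with a log2 CPM of 10.27, 10.59, 10.58 and 10.81. The cystine transporter Slc7a11 stood at 8.04, 7.86, 7.92 and 8.20, and Acod1, which makes itaconate, at 7.01, 6.67, 7.35 and 7.40. Ptgs2, the inducible cyclooxygenase, was at 2.25, 1.53, 2.26 and 2.17. Nos2, the inducible nitric oxide synthase, had 0, 3, 0 and 0 reads, Edn1 (endothelin 1) 1, 0, 0 and 1 and Hdc (histidine decarboxylase) 0, 1, 0 and 1. The 34 genes with a row took 0.276% ± 0.0249 (SD, n = 4) of the resting reads, with a median log2 CPM of 3.31. At 4 hr of LPS Nos2 was at 3.67 to 4.47, Edn1 at 4.62 to 5.54 and Hdc at 2.61 to 3.14, but these were chosen for having few reads at rest, so that the difference is no test.

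With LPS these 3 lists left their resting level. A gene that needed LPS libraries to enter the test was in part selected for a higher level there. Counts are therefore given for members with at least 1 CPM in 2 resting libraries. This limit was met by 11338 of the 11885 genes tested. Shares are at hand for all 11885 genes, with 29.1% higher and 26.7% lower at 4 hr, and 24.5% and 21.6% at 8 hr. Of 16 cytokine genes that met the limit 12 were higher and 2 lower at 4 hr, and 11 higher and 2 lower at 8 hr. Their median log2 changes were 1.57 and 1.35. Of 17 such chemokine genes 12 were higher and 1 lower at 4 hr, and 11 higher and 2 lower at 8 hr, with medians of 3.41 and 2.84. Of 28 such effectors 28 were higher and 0 lower at 4 hr, and 26 higher and 1 lower at 8 hr. The effectors were listed for being LPS-inducible, so that their higher values with LPS are no test. A further 16 cytokine genes, 6 chemokine genes and 6 effectors reached 1 CPM in fewer than 2 resting libraries and needed LPS libraries to enter the test. Il1b was higher by 8.31 ± 0.20 at 4 hr (SE, limma adjusted p = 2.0e-10) and Cxcl2 by 6.88 ± 0.08 (limma adjusted p = 2.4e-12), while Il16, a lymphocyte attractant, changed by -2.39 ± 0.25 at 8 hr (limma adjusted p = 1.6e-05). At 4 hr the lists took 0.679% ± 0.0670 (cytokines), 1.15% ± 0.108 (chemokines) and 2.28% ± 0.132 (effectors) of the reads (SD, n = 4).

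**Figure D5:**
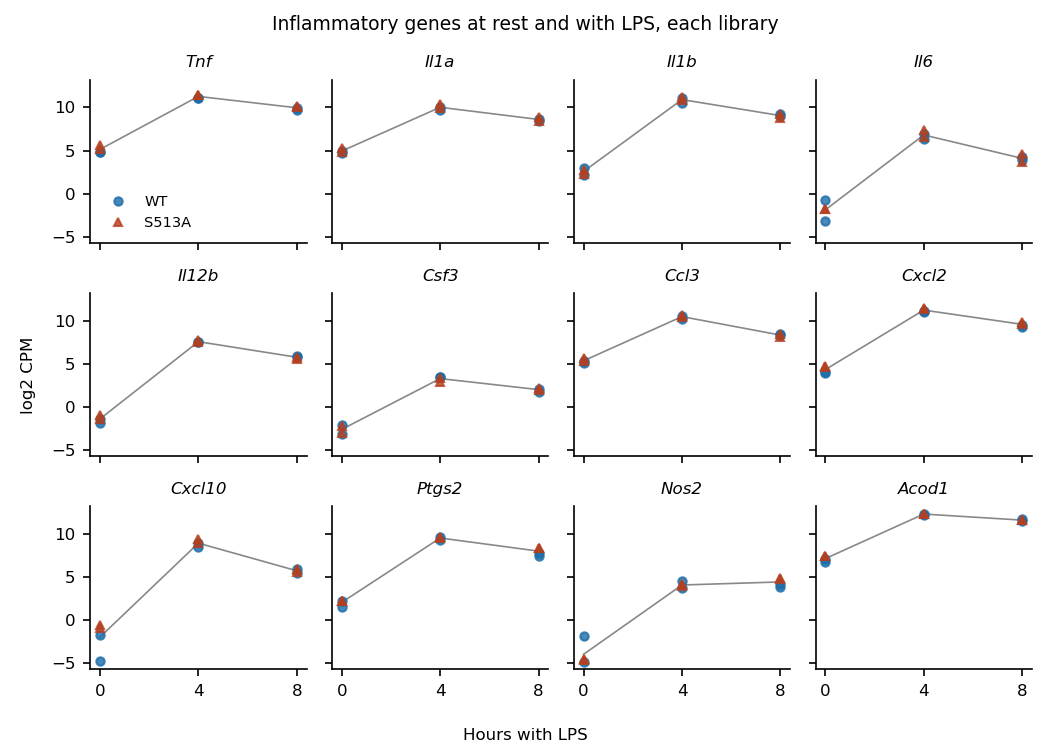
log2 CPM (y axis) of 12 inflammatory genes at 0, 4 and 8 hr with LPS (x axis), with 1 point per library (WT circles, S513A triangles) and a line through the mean of the 4 libraries at each time. At rest Il6, Il12b, Csf3, Cxcl10 and Nos2 lie below 0 in every library, while Tnf lies at 4.88 to 5.61 and Acod1 at 6.67 to 7.40.

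TATAAA, the core of the TATA box, was in windows of 15.7% of all genes, of 8.86% of the genes of the table, of 9 of the 24 cytokine genes with a window, of 7 of 18 chemokine genes and of 22 of 78 of the 100 most abundant genes. Of the 9 cytokine genes Ifng, Il17f, Il22 and Lta were at 3 reads or fewer in every resting library, and Tnf, Il1a, Il1b, Il1rn and Il18 were not. Tnf (minus strand, chr17:35201958-35202257) and Ifng (plus strand, chr10:118440796-118441095) are shown, with the motif in capitals, as a gene present at rest and a gene without a read.
Tnf: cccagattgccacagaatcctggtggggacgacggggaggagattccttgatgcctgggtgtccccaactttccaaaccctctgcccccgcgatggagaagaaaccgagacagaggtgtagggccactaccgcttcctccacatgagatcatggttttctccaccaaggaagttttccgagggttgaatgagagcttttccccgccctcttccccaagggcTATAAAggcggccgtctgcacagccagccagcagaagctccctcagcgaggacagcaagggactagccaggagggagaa
Ifng: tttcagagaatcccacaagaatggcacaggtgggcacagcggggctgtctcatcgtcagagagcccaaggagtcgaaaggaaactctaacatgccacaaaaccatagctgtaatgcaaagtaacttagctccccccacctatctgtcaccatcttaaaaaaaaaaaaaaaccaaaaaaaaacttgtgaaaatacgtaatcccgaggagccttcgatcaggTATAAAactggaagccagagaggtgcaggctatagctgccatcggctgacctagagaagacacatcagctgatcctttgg
The match began 29 bases before the start in Tnf and 30 bases before it in Ifng.

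The LPS-sensing apparatus was present at rest at moderate levels. The 39 genes with a row were all above 1 CPM, with a median log2 CPM of 5.65, and 3 of them reached 100 CPM. Among Toll-like receptors Tlr13, a sensor of bacterial ribosomal RNA, led with 279 ± 25.5 TPM (SD, n = 4). Tlr2, for bacterial lipopeptides, had 82.9 ± 10.7, the endosomal receptors Tlr8 and Tlr7 70.9 ± 10.9 and 55.4 ± 6.16, and Tlr1 40.0 ± 6.58, each overlapping with the next. Tlr4, the LPS receptor, lay below these without overlap, at 24.8 ± 3.14 TPM, and above Tlr6, Tlr3 and Tlr9. Its log2 CPM was 5.81, 5.74, 5.74 and 5.73. Cd14 stood at 6.51, 6.49, 6.66 and 6.83 and Ly96 at 3.62, 4.21, 4.63 and 4.64. Of the 39 genes 30 were higher and 4 lower at 4 hr of LPS, and 26 higher and 2 lower at 8 hr, with Cd14 higher by 3.75 ± 0.13 (SE, limma adjusted p = 2.1e-09) and Tlr13 changed by -0.67 ± 0.07 (limma adjusted p = 1.0e-05) at 4 hr. The shares over all genes tested were 29.1% higher and 26.7% lower at 4 hr, and 24.5% and 21.6% at 8 hr.

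Zc3h12a, the gene altered in the S513A mice, stood at a log2 CPM of 5.39, 5.20, 4.99 and 5.09 at rest, or 33.2 ± 7.43 TPM (SD, n = 4). A change of a single residue leaves the transcript in place, so this level does not check the genotype labels. Its relatives Zc3h12c and Zc3h12d had 11.6 ± 1.02 and 11.2 ± 2.02 TPM, which overlapped with each other and lay below Zc3h12a. Of the 14-3-3 proteins, which bind phosphorylated partners, Ywhae was highest with 392 ± 19.0 TPM, before Ywhab with 237 ± 25.1, and Sfn was lowest with 11.4 ± 1.19. With LPS Zc3h12a was higher by 2.80 ± 0.08 at 4 hr (SE, limma adjusted p = 6.2e-10).

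Ribosomal protein genes differed widely in share between libraries. The 75 genes had a median log2 CPM of 8.41 and took 2.84% ± 0.738 (SD, n = 4) of the resting reads, with a range of 1.89% to 3.63%, and none was among the 100 most abundant genes. By TPM their share was 6.72%. Whether reads of these genes were divided with or lost to near-identical copies elsewhere in the genome was not tested, so both shares may be too low. Rplp1, a stalk protein with a transcript of 499 bp, stood at 8.73, 9.53, 10.11 and 9.83 and Rps29, of 390 bp, at 7.40, 8.54, 9.28 and 8.83, while Rplp0, of 1358 bp, stood at 9.50, 9.42, 9.66 and 9.65. The shorter genes followed the order of the length trend. With LPS 1 of the 75 was higher and 0 lower at 4 hr, and 1 higher and 1 lower at 8 hr. Among all genes tested 29.1% were higher and 26.7% lower at 4 hr, and 24.5% and 21.6% at 8 hr. Because the share of these genes differed widely between libraries, few calls do not show that their level was stable. The 13 mitochondrial mRNAs, a list added after the table was seen, took 1.17% ± 0.109 of the resting reads. Of 21 proliferation genes 7 stood below 1 CPM, with the replication clamp gene Pcna highest at 7.86 ± 0.22 and the proliferation marker Mki67 at 3.90 ± 0.24.

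A few transcripts that are abundant in most cells were low in the table. Tmsb4x (thymosin β4) had 1, 3, 4 and 3 reads, and Gapdh stood at a log2 CPM of 6.17 ± 0.17 (SD, n = 4) while the glycolytic enzymes Pkm and Aldoa stood at 10.71 ± 0.07 and 10.15 ± 0.12. Tmsb4x and Gapdh have near-identical copies elsewhere in the genome, between which reads can be divided or dropped, and their levels are uncertain.

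The 10 genes with the largest SD among the same 8442 genes were Naip6, Cdc42bpg, Retnla, Gm5963, Mt3, Col1a1, Kcnn3, Rps29, Cops9 and Gm14586. Naip6, of a family of sensors of bacterial proteins, had 562, 506, 381 and 2 reads. The S513A replicate 2 libraries at 4 and 8 hr had 0 reads of Naip6, whereas the other 6 LPS libraries had 259 to 409. Its neighbour in sequence, Naip5, had 542, 545, 343 and 419 reads at rest, so that Naip6 alone of these was near 0 in the libraries named S513A replicate 2. The genes are close paralogs between which reads can be divided, and the cause was not tested. Cdc42bpg, a kinase, had 112, 147, 364 and 362 reads, the metallothionein Mt3 92, 102, 285 and 161 and the potassium channel gene Kcnn3 174, 195, 48 and 85. Of the 10 genes 7 were lowest in WT replicate 1 and highest in S513A replicate 1, as in the length trend of short transcripts. These were Gm5963, Rps29, Cops9, Gm14586, Retnla and Mt3, with transcripts of 236 to 1066 bp, and Cdc42bpg, whose transcript of 5995 bp is long. Transcripts of 4000 to 8000 bp stood at medians of 0.03, 0.05, -0.05 and -0.03 from the 4-library mean, so Cdc42bpg ran against the trend of its length class.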

How the data were processed

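PECs of WT and Zc3h12a S513A/S513A mice were profiled by poly(A) RNA-seq (NEBNext Ultra libraries, Illumina NextSeq) at 0, 4 and 8 hr of LPS, with 2 libraries per genotype and time, grouped by the labels. The submitters' processing notes name HISAT2, the mm10 build and featureCounts 1.6.3. The authors deposited 1 table of log2 CPM values, and the program behind the scaling, the gene annotation and the rule by which genes entered the table are not given in the sources used here. Whole reads were recovered from the steps between low values, with the largest departure from a whole read being 0.00141 reads.

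Genes were ranked by mean log2 CPM over the 4 resting libraries. TPM used transcript lengths from the GENCODE basic annotation, taken as the union of the exons of a gene. A length was found for 98.1% of the genes (11957 by Entrez ID and 649 by symbol). The LPS contrasts were fitted with limma 3.58.1 (R 4.3.3) to the deposited log2 values, with 6 group means (genotype by time), a trend in the prior and Benjamini-Hochberg adjustment over the genes with at least 1 CPM in 2 of the 12 libraries. The script was tested on simulated data. Read totals of 9525979 to 12439960 per library limit the precision for genes of few reads, and counting limits cover counting error only. Named genes were the 20 highest by log2 CPM, the 10 highest by TPM, the 4 highest and up to 3 most changed per direction of each list, the silent members of the cytokine, chemokine and effector lists, the highest 2 of each marker list and the 10 most variable genes. Further list members were named after their values were seen. The members and lists were chosen with earlier results of these data known. Alternatives were other filters, pseudocounts, scalings, priors, weights, a replicate block, each genotype alone and each library left out. The promoter windows are of GRCm38.p6, the assembly that mm10 displays. The results of a few genes are not reported here.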

Additional observations from a re-analysis of the deposited data

Results flagged for a closer look

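Of 159 values examined over the 4 resting libraries, 8 had 1 library whose gap to the nearest other exceeded Dixon's 95% critical value for 4 samples, and chance sets apart about 1 in 20. Naip6 was at a log2 CPM of -2.25 in S513A replicate 2 and at 5.07 to 5.29 in the other libraries. In the same library the protease gene Ctsl was at 11.57 (others 11.75 to 11.77), the endothelial receptor gene Kdr at 2.91 (others 3.41 to 3.45) and the endothelial marker list at 0.000831% of the reads (others 0.00121% to 0.00126%), a list to which Kdr contributes most. In WT replicate 2 the gelatinase gene Mmp9 was at 5.25 (others 5.62 to 5.69), the IgM gene Ighm at 3.18 (others 2.74 to 2.81) and the MHC class II gene H2-Ab1 at 6.53 (others 6.99 to 7.07). In WT replicate 1 the glycolysis list took 0.786% of the reads (others 0.700% to 0.714%). What caused any of them was not tested.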

How the results depend on the processing

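By TPM the 10 highest genes held 18.4% and the 100 highest 39.7%, ribosomal protein genes 6.72% and lysosomal genes 8.14%, and 62 of the 100 most abundant genes stayed among the highest 100, since TPM divides by length. With the S513A libraries alone the 100 most abundant genes held 32.9% of the reads, and 377 genes had 3 reads or fewer in each library, which fewer libraries make easier to meet. Leaving out each library in turn gave 15.2% to 15.6% for the 10 and 31.9% to 32.4% for the 100 most abundant genes, 2.57% to 3.16% for ribosomal protein genes, 8.37% to 8.53% for lysosomal genes and 179 to 225 genes at 3 reads or fewer. It gave 3109 to 3566 genes higher and 2755 to 3211 lower at 4 hr of LPS, and 2456 to 3166 higher and 2071 to 2821 lower at 8 hr. Under the other alternatives these 4 counts stayed within 1.5 times the reported ones. Of 5959 alternative values for 261 pairs of a named gene and a time, 5765 kept their direction and their side of the threshold, 191 lost the call (51 pairs) and 3 changed sign. These were Tmsb10 (0.0644), Ciita (-0.0534) and Rpl10a (0.0479) at 8 hr in the WT libraries alone, and the cause was not tested. A replicate block gave 3479 genes higher and 3202 lower at 4 hr, and 2934 higher and 2576 lower at 8 hr. The deviations of libraries with the same number correlated at -0.36 to 0.76 over the pairs of times, so the numbers were not taken to pair the samples by the rule that every pair of times correlate. Naip6 and Col1a1 were each lowest in S513A replicate 2 at all 3 times. Whether these 3 libraries share a source was not tested, and the labels do not state it. Depth limits what can be said of genes with few reads at rest, for which a level of 0 was not distinguishable from 3 reads.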

Other observations

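Lists not described so far were also present at rest. The 23 genes of the cytoskeleton had a median log2 CPM of 9.79 and 11 were among the 100 most abundant, led by Actb (β-actin) at 11.69 ± 0.10 (SD, n = 4), the intermediate filament gene Vim at 10.80 ± 0.05 and the actin-capping Capg at 10.77 ± 0.15. With LPS 10 of 22 tested were higher and 2 lower at 4 hr, and 8 higher and 4 lower at 8 hr, with Lcp1 (L-plastin, an actin bundler) at 1.20 ± 0.08 at 4 hr (SE, limma adjusted p = 4.3e-07). The 17 glycolysis genes had a median of 8.04, and 3 were higher and 7 lower at 4 hr, and 5 higher and 4 lower at 8 hr. Across all genes tested 29.1% were higher and 26.7% lower at 4 hr, and 24.5% higher and 21.6% lower at 8 hr. The 30 matrix and adhesion genes took 3.12% ± 0.0931 of the resting reads, and 16 were higher and 6 lower at 4 hr, against 13 and 13 at 8 hr.

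The 26 immediate early and heat shock genes with a row, many of which cells induce quickly after a stimulus, had a median log2 CPM of 4.88 at rest. The chaperone gene Hspa8 stood at 9.58, 9.67, 9.81 and 9.93, Atf3, a stress-induced factor, at 8.72, 8.73, 8.88 and 8.83, and Jun, a subunit of AP-1, at 7.47, 7.44, 7.41 and 7.31, whereas Egr1 stood at 1.27, 0.85, 0.78 and 0.63. Of the 23 with at least 1 CPM in 2 resting libraries 18 were higher and 4 lower at 4 hr of LPS, and 12 higher and 4 lower at 8 hr. Fos, the partner of Jun, stood at 5.44, 5.38, 5.29 and 5.35 and was lower with LPS, by a log2 change of -1.99 ± 0.09 at 4 hr (SE, limma adjusted p = 1.4e-08). Of the 15 complement genes tested 6 were higher and 5 lower at 4 hr, and 5 higher and 7 lower at 8 hr. For comparison, 29.1% of all genes tested were higher and 26.7% lower at 4 hr, and 24.5% and 21.6% at 8 hr.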
